A study of Homo sapiens with 10 samples.

Results

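Genes of cholesterol synthesis, of its regulation, and of cholesterol uptake, efflux and storage were measured on Affymetrix HG-U133 Plus 2.0 expression arrays. The RNA came from RWPE-1, a prostate epithelial cell line of human origin that was immortalised and does not form tumours. The genes were taken from a list of 28, and a gene was kept if at least 1 probe set of the array named it alone. This left 26 of 19775 genes on the array, read by 60 of 54675 probe sets. CYP51A1 and FDFT1 had no such probe set and are not described. The 26 genes were split into 15 synthesis enzymes, 5 regulators and 6 genes of uptake, efflux and storage.

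The cells had been transduced with MSCV retroviruses and grown as selected stable clones under normal conditions. Clones with ETV1 gave 4 arrays, clones with ERG gave 3 arrays and control clones gave 3 arrays. All groups carried BirA, a bacterial biotin ligase, and the controls carried it alone. ETV1 and ERG are ETS transcription factors that gene fusions activate in prostate cancer. The labels do not say how many clones stood behind the arrays of a group, so each p-value reflects how these particular arrays vary, and some of that variation may be technical.

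Cells make cholesterol from acetyl-CoA through mevalonate, isoprenoid units, squalene and a series of sterol intermediates. When membranes are poor in sterol, SCAP escorts the SREBP transcription factors, the products of SREBF1 and SREBF2, from the endoplasmic reticulum to the Golgi, where proteases release the part that enters the nucleus. There SREBP acts with NF-Y and SP1 on promoters of the synthesis enzymes and of INSIG1, whose protein holds SCAP back when sterol is plentiful. Cholesterol taken up from lipoproteins leaves the lysosome through NPC2 and NPC1, is stored as an ester by SOAT1, and is exported by ABCA1 and ABCG1. In prostate epithelium cholesterol is also the starting material of steroids.

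ERG-labelled arrays differed from the rest as a whole. Across all probe sets, an ERG-labelled array and a control array had a Spearman correlation of 0.766 to 0.811, against 0.956 to 0.969 between ETV1 and control arrays. For ACTB, the 3 prime to 5 prime signal ratio that tracks RNA quality was 2.75 to 3.07 on the ERG-labelled arrays, 1.24 to 1.30 on ETV1 arrays and 1.35 to 1.40 on control arrays. The same ratio for GAPDH did not set the ERG-labelled arrays apart from the ETV1 arrays. It was 0.946 to 1.045 on ERG-labelled arrays, 0.994 to 1.05 on ETV1 arrays and 0.893 to 0.931 on control arrays. ETV1 was raised on its arrays (at least 547 against at most 143 on control arrays in 3 of its 5 probe sets), while ERG did not settle its label. Of its 4 probe sets, 1 read 25.7 to 49.95 on the ERG-labelled arrays and 5.32 to 11.2 on control arrays, and the brightest read 7.70 to 10.8 on the ERG-labelled arrays and 183 to 191 on control arrays. Basal keratin KRT14 read 11060 to 11960 on ETV1 arrays, 9161 to 11200 on ERG-labelled arrays and 7939 to 9073 on control arrays. All 7 measured basal markers lay above the array median on at least 3 arrays. Of the fibroblast, endothelial and leukocyte markers, 4 of 6, 2 of 6 and 3 of 5 lay below the array median on every array, but some were well above it. The endothelial marker PECAM1 read 1171 to 1335 on ETV1 arrays, 151 to 172 on ERG-labelled arrays and 1313 to 1493 on control arrays. The fibroblast collagen COL1A1 read 765 to 787 on ETV1 arrays, 105 to 159 on ERG-labelled arrays and 619 to 768 on control arrays. The cre hybridisation control, added to every sample, read 15710 to 17420 on ETV1 arrays, 29410 to 32320 on ERG-labelled arrays and 14930 to 15840 on control arrays. Whether the ERG-labelled arrays were processed like the other 7 is not stated in the labels, so directions on them describe the deposited values and cannot be told apart from a difference in processing.

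Sterol synthesis enzymes were lower in ETV1 cells. Of the 15 measured enzymes, 8 fell and none rose relative to control cells, against 15.9% of all 14045 tested genes that were lower and 9.36% that were higher, or 25.3% in either direction (limma, Benjamini-Hochberg adjusted p under 0.05 over all tested genes). The 8 were ACAT2, PMVK, IDI1, FDPS, SQLE, LSS, EBP and DHCR7, which lie along the whole route from acetoacetyl-CoA to cholesterol. On each of them, every ETV1 array read below every control array. No other synthesis enzyme had non-overlapping arrays. Over all tested genes, 20.8% were lower and 13.3% higher without overlap. The median log2 fold change of the 15 enzymes was -0.44, against -0.06 for all tested genes. Here and below, a log2 fold change is a difference of means of log2(intensity + 16), and each gene is read from the probe set that was brightest on average.

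**Figure D1:**
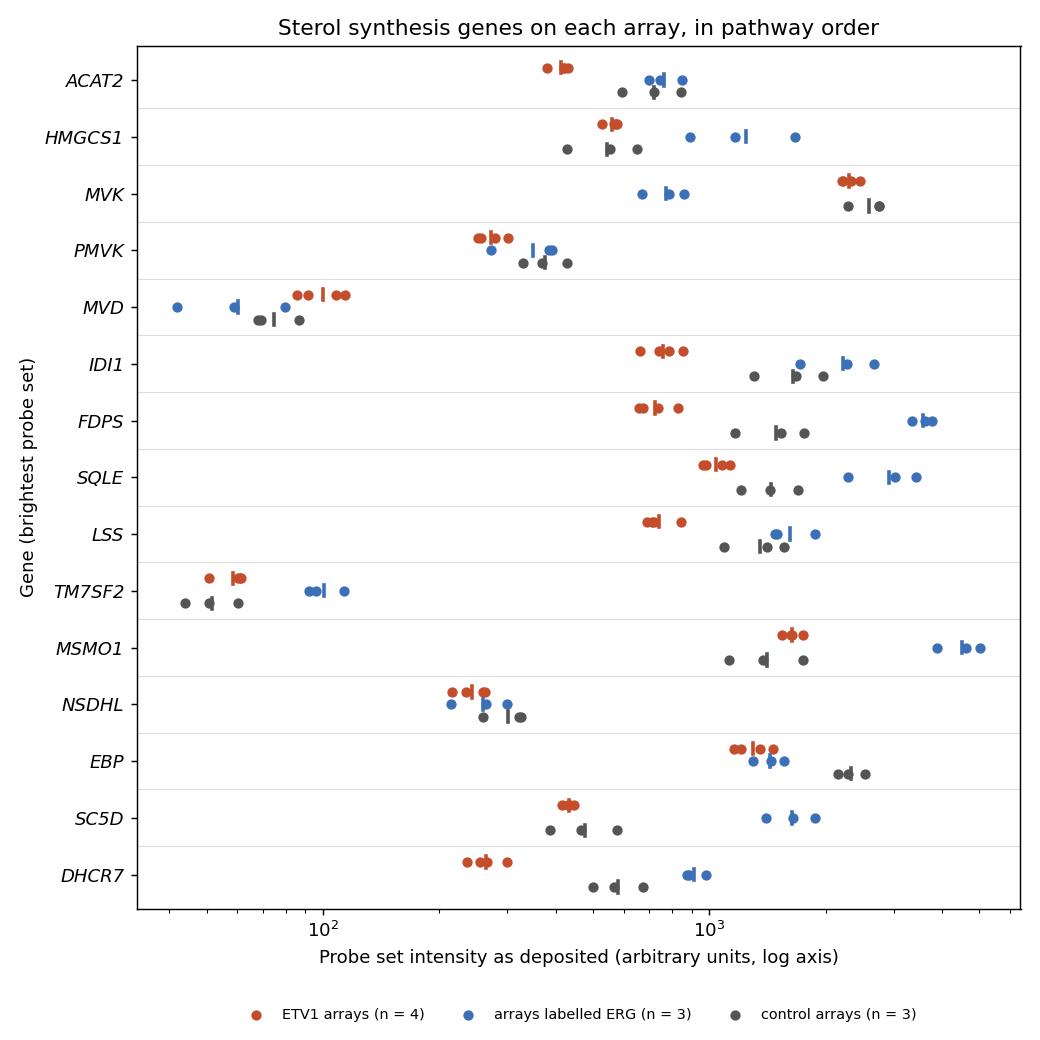
Intensity of each of the 15 synthesis enzymes on every array, in pathway order from the top (points: arrays, short bars: group means, log axis). For IDI1, FDPS and DHCR7 the ETV1 points lie left of all control points, while HMGCS1, TM7SF2 and MSMO1 show overlapping ETV1 and control points.

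The early steps did not move together. ACAT2, the cytosolic thiolase that joins acetyl units at the start of the route, read 419.6, 430.4, 421 and 380.5 on the ETV1 arrays and 844, 719 and 594 on the control arrays. Its log2 fold change was -0.76 (SE 0.14, limma adjusted p = 7.3e-04). HMGCS1, the HMG-CoA synthase of the next step, read 528 to 577 on ETV1 arrays and 428 to 650.5 on control arrays. The ETV1 values lay within the control range, and the difference was 0.06 (SE 0.18, limma adjusted p = 0.85). Of the enzymes that turn mevalonate into an isoprenoid unit, the phosphomevalonate kinase PMVK fell by 0.44 (SE 0.15, limma adjusted p = 0.039). The mevalonate kinase MVK and the decarboxylase MVD differed by -0.17 and 0.35 and did not pass (limma adjusted p = 0.40 and 0.13).

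The steps that build and join isoprenoid units were among the largest falls. IDI1, the isomerase of isopentenyl diphosphate, read 739.96, 852, 784 and 663 on the ETV1 arrays and 1971, 1672 and 1308 on the control arrays. The highest ETV1 array lay below the lowest control, replicate C. The log2 fold change was -1.09 (SE 0.17, limma adjusted p = 1.7e-04). FDPS, the farnesyl diphosphate synthase, read 659, 829, 735 and 674 on the ETV1 arrays and 1753, 1532 and 1167 on the control arrays, a log2 fold change of -1.004 (SE 0.15, limma adjusted p = 1.1e-04). A second IDI1 probe set fell by 1.07, while the remaining ones, both much dimmer, differed by -0.29 and 0.09 and did not pass.

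The sterol-specific steps fell in part. SQLE, the squalene epoxidase, read 979, 1133, 1081 and 962 on the ETV1 arrays and 1694, 1438 and 1204 on the control arrays, a log2 fold change of -0.46 (SE 0.16, limma adjusted p = 0.040). The other SQLE probe sets differed by -0.41, -0.23 and 0.02 and did not pass. LSS, the cyclase that forms lanosterol, read 691, 718, 712 and 847 on the ETV1 arrays and 1562, 1410 and 1094 on the control arrays (log2 fold change -0.84, SE 0.15). The other LSS probe sets differed by 0.26 and -0.13 and did not pass. EBP, the sterol isomerase, read 1157, 1349, 1206 and 1466 on the ETV1 arrays and 2535, 2290 and 2152 on the control arrays (log2 fold change -0.84, SE 0.13). A second EBP probe set fell by 0.88, while the others differed by 0.41, with every ETV1 array above every control array, and by 0.14, and did not pass. DHCR7, the reductase of the last step, read 236, 265, 300.3 and 255 on the ETV1 arrays and 675, 568 and 501 on the control arrays. Its log2 fold change of -1.09 (SE 0.14, limma adjusted p = 2.2e-05) came with a second probe set at -1.09. In contrast, the sterol methyl oxidase MSMO1 (0.23), the sterol reductase TM7SF2 (0.14), the dehydrogenase NSDHL (-0.29) and the desaturase SC5D (-0.12) did not pass.

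Control replicate A was the highest of the 3 controls for 15 of 15 synthesis enzymes, and control replicate C the lowest for 14 of 15. Over all tested genes the same held for 65.6% and 74.1%. Without control replicate A, 6 of 15 enzymes were lower, PMVK (-0.34) and SQLE (-0.34) no longer passing, and 1160 of all tested genes were lower in place of 2237. Without control replicate B, PMVK (-0.44) and SQLE (-0.46) did not pass either, and 1275 genes were lower in all. Without control replicate C 8 enzymes were lower, and 3133 genes were lower in all. PMVK and SQLE also ended without ETV1 replicate A or C, PMVK without ETV1 replicate B and SQLE without ETV1 replicate D. The 5 prime part of 18S ribosomal RNA read 276 to 874 on ETV1 arrays and 79.4 to 159 on control arrays, and its part in these differences was not tested. Summed luminal marker intensity was also lower, at 11310 to 14320 on ETV1 arrays and 14410 to 18340 on control arrays, and its part was not tested either. Of 7 tested luminal markers 3 were lower, 1 was higher and 3 did not pass, and the sum leans on the brightest, KRT18. KRT18 read 3531 to 5853 on ETV1 arrays and 6732 to 7855 on control arrays. Summed basal marker intensity was 30990 to 32680 on ETV1 arrays and 22340 to 25190 on control arrays, and its part was not tested. Of 7 basal markers 4 were higher, and 6 were higher without overlap. Over all tested genes 15.9% were lower and 9.36% higher, and 13.3% were higher without overlap.

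**Figure D2:**
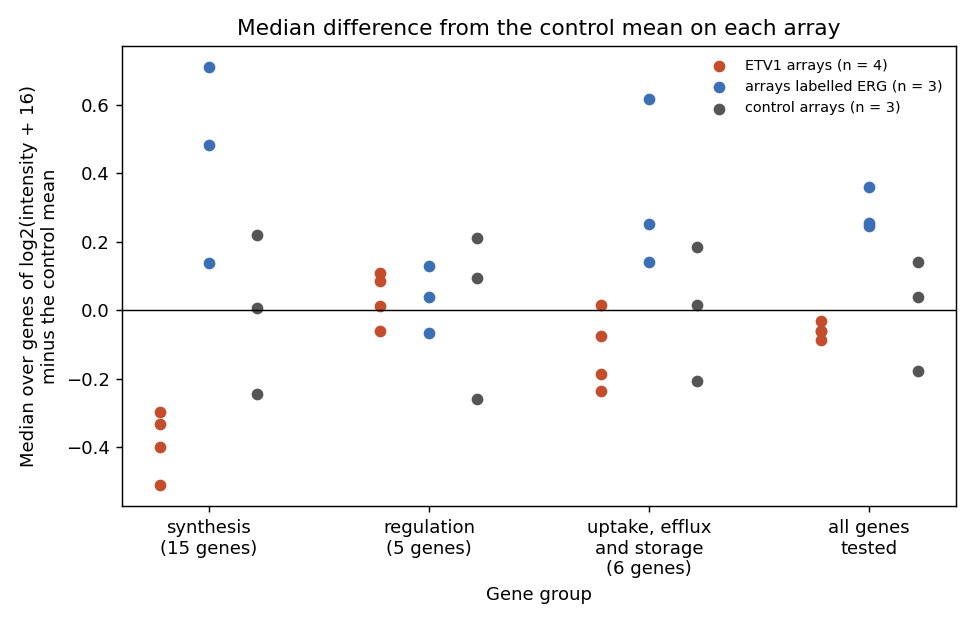
Median over the genes of each group of the difference from the control mean on the log2(intensity + 16) scale, with 1 point per array. The synthesis points of the ETV1 arrays lie at -0.51 to -0.30 and those of the control arrays at -0.25 to 0.22, while the points for all tested genes lie at -0.09 to -0.03 on the ETV1 arrays and at -0.18 to 0.14 on the control arrays.

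The promoters of the genes that fell were looked up because SREBP, NF-Y and SP1 sites are described for this pathway. RefSeq promoters (GRCh38.p14), 250 bases before to 50 after the start, were found for 23 of the 26 genes, and for some genes there was more than 1. The 200 bases before the start are shown for 4 of the synthesis enzymes that fell, for the regulators INSIG1 and SREBF2 and, as an enzyme that did not pass, for MSMO1. Capitals mark the NF-Y box CCAAT on either strand (ATTGG on the printed strand) and, in SREBF2, a 10-letter sterol regulatory element.
DHCR7, chr11:71448394-71448593, minus strand: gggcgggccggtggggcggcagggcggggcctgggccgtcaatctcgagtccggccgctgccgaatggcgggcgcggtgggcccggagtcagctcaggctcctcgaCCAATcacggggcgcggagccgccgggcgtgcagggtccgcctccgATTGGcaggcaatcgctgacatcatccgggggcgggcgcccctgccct
FDPS, chr1:155308666-155308865, plus strand: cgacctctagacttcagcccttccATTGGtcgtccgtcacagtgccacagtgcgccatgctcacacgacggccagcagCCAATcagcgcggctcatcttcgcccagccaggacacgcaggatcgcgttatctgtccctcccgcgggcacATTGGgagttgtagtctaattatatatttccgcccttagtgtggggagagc
EBP, chrX:48521608-48521807, plus strand: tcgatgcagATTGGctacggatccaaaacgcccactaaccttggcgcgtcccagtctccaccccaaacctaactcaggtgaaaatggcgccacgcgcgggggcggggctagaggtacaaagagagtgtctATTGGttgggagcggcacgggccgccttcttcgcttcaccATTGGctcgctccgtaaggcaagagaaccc
IDI1, chr10:1048887-1049086, minus strand: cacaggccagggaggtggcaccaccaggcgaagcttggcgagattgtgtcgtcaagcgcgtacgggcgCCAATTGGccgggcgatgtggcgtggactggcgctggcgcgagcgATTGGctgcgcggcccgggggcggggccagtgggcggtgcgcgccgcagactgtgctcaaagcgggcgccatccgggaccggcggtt
INSIG1, chr7:155297678-155297877, plus strand: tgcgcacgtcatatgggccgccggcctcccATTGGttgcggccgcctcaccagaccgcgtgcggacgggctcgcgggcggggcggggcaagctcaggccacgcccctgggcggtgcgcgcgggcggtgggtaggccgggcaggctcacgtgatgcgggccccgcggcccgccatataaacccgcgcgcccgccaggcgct
SREBF2, chr22:41832905-41833104, plus strand: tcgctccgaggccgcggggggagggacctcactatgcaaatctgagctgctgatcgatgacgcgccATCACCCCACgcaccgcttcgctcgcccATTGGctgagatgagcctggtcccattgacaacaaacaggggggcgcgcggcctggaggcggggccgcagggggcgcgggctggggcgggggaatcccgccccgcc
MSMO1, chr4:165327469-165327668, plus strand: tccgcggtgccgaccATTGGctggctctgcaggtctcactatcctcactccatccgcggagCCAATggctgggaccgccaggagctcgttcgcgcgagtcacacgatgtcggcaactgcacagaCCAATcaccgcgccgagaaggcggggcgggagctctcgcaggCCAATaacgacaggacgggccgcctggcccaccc

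DHCR7 held 2 NF-Y boxes in this stretch, FDPS, EBP and IDI1 held 3 each, and MSMO1, whose level did not pass, held 4. In IDI1 a forward and a reverse match overlap. At least 1 CCAAT on either strand was found for 12 of the 13 synthesis enzymes with a promoter (92.3%), for 2 of 5 regulators and for 3 of 5 transport and storage genes, against 42.8% of the 11293 tested genes with a promoter. Among the genes lower in ETV1 cells 8 of 10 held it, and among the others 9 of 13. The GC box GGGCGG, bound by SP1, was in 22 of 23 promoter sets, against 73.2% of tested genes. The sterol regulatory element shown in capitals was found in SREBF2 alone among the 23 genes, and in 6 of the 11293 tested genes. The wider form TCACNCCAC was found in SREBF2 alone too, against 1.43% of tested genes. The ETS letters CCGGAAGT were found in IDI1 alone, in another of its promoters, against 9% of tested genes, and the E-box CACGTG in 5 of 23, against 12.3%. These are matches of letters in a short window, and binding was not measured.

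Among the 5 regulators, 2 fell and 2 rose in ETV1 cells, against 15.9% of all tested genes that were lower and 9.36% that were higher. The paralogs INSIG1 and INSIG2 went opposite ways. INSIG1, which retains SCAP in the endoplasmic reticulum and is itself an SREBP target, read 229, 212, 194 and 188 on the ETV1 arrays and 473, 393 and 326 on the control arrays. Its log2 fold change was -0.89 (SE 0.15, limma adjusted p = 4.1e-04), and both further INSIG1 probe sets fell as well (-0.48 and -0.68). INSIG2, which retains SCAP in the same way, read 372, 425, 392 and 258 on the ETV1 arrays and 272, 259.9 and 201 on the control arrays. Replicate D lay within the control range, and the log2 fold change was 0.52 (SE 0.16, limma adjusted p = 0.026). SREBF1, which encodes the SREBP forms that act mainly on fatty acid genes and in part on sterol genes, read 839, 816, 858 and 913 on the ETV1 arrays and 1686, 1630.2 and 1118 on the control arrays (log2 fold change -0.75, SE 0.17, limma adjusted p = 3.1e-03). A second SREBF1 probe set, below the array median on all arrays of both groups, differed by -0.04 and did not pass. SCAP rose by 0.40 (SE 0.13, limma adjusted p = 0.034), with every ETV1 array above every control array. The rises of SCAP and INSIG2 both ended without control replicate B or C or ETV1 replicate A or C, which left 2 of the 5 regulators called. SCAP also ended without ETV1 replicate D, and INSIG2 without ETV1 replicate B.

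SREBF2, which encodes the SREBP that acts mainly on sterol genes, gave different answers from its probe sets. Its brightest probe set read 475 to 538 on ETV1 arrays and 361 to 636 on control arrays, a difference of 0.04 (limma adjusted p = 0.88). Another probe set read 351.3, 394, 366 and 385 on the ETV1 arrays and 166, 181 and 142 on the control arrays. That one rose by 1.13 (limma adjusted p = 4.4e-05 over all probe sets), with no overlap of arrays, and the third SREBF2 probe set differed by 0.15.

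**Figure D3:**
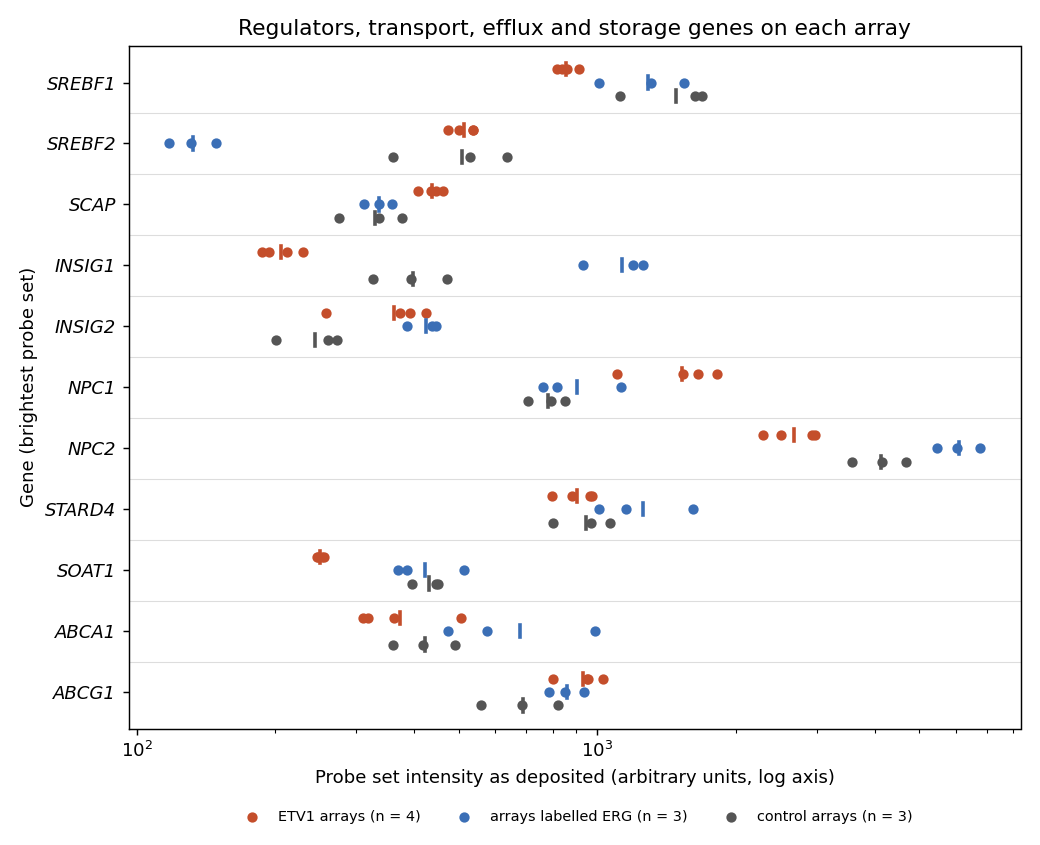
Intensity of the 5 regulators and the 6 genes of uptake, efflux and storage on every array (points: arrays, short bars: group means, log axis). NPC1 and SCAP lie right and NPC2, SOAT1, INSIG1 and SREBF1 lie left of the control points on the ETV1 arrays.

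In the group of uptake, efflux and storage, the lysosomal pair moved in opposite directions in ETV1 cells, as read from the brightest probe sets. NPC1, the membrane protein that moves cholesterol out of the lysosome, read 1535, 1821, 1657 and 1104 on the ETV1 arrays and 849, 792 and 709 on the control arrays. All ETV1 arrays were above all control arrays, replicate D the least, and the log2 fold change was 0.93 (SE 0.17, limma adjusted p = 9.0e-04). The other tested NPC1 probe set, much dimmer, differed by 0.13 and did not pass. With the mean of its probe sets NPC1 did not pass either (0.34, limma adjusted p = 0.071). NPC2, the soluble protein that hands cholesterol to NPC1, read 2287, 2924, 2499.9 and 2972 on the ETV1 arrays and 4684, 4143 and 3579 on the control arrays (log2 fold change -0.63, SE 0.14, limma adjusted p = 4.4e-03). SOAT1, the acyltransferase that stores cholesterol as ester, read 253, 246, 255 and 248 on the ETV1 arrays and 452, 447 and 397 on the control arrays. It fell by 0.75 (SE 0.13, limma adjusted p = 6.6e-04), and a second SOAT1 probe set fell by 0.90. The exporter ABCG1 rose by 0.44 (SE 0.15, limma adjusted p = 0.036) with overlapping arrays, at 799 to 1027 on ETV1 arrays and 558 to 820 on control arrays. Its call ended without control replicate B or C or ETV1 replicate B, C or D, and 1 of the other ABCG1 probe sets differed by -0.42 and did not pass. Of the remaining ones, 1 rose by 0.70 (limma adjusted p = 9.9e-03 over all probe sets) and 1 differed by 0.28 and did not pass, both with every ETV1 array above every control array. ABCA1, the exporter to lipid-poor apolipoproteins, and STARD4, a cytosolic sterol carrier, differed by -0.19 and -0.05 and did not pass.

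**Figure D4:**
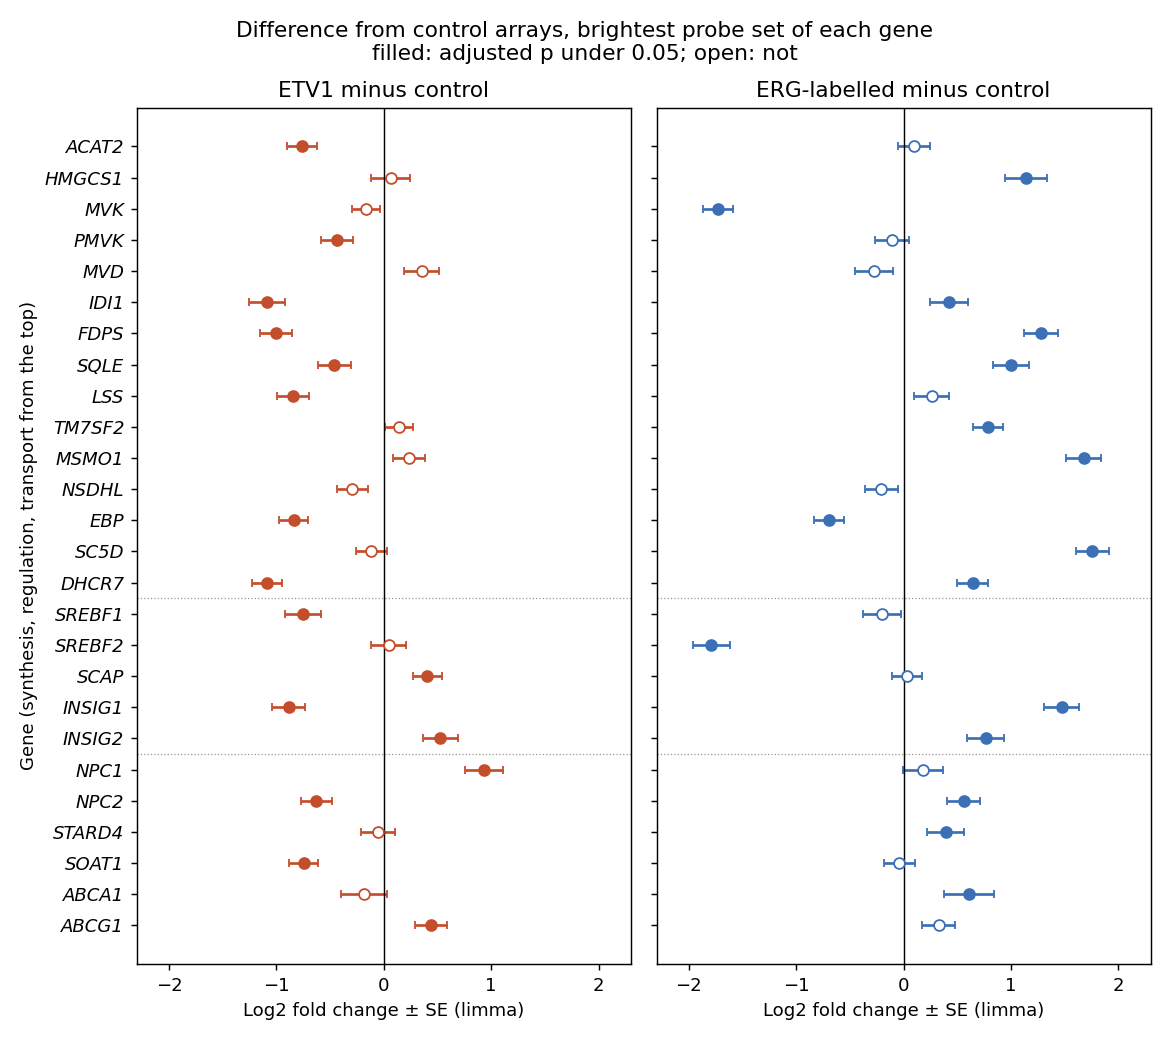
Log2 fold change with standard error of each gene's brightest probe set, ETV1 minus control on the left and ERG-labelled minus control on the right (filled: adjusted p under 0.05). On the left 12 genes are filled below 0 and 4 above, on the right 3 below and 13 above. Over all tested genes 15.9% were lower and 9.36% higher on the left, and 32.2% and 47.7% on the right.

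Of 11 tested genes of fatty acid synthesis and related SREBP targets, 6 fell, 1 rose and 4 did not pass in ETV1 cells. Over all tested genes 15.9% were lower and 9.36% higher, and these shares apply to each further list below. SCD, the stearoyl-CoA desaturase, averaged 2958 ± 398 on ETV1 arrays (SD, n = 4) and 7364 ± 646 on control arrays (n = 3), a log2 fold change of -1.32 (SE 0.15). TMEM97, a sterol-regulated protein that binds NPC1, fell by 0.94, and ACLY, which makes cytosolic acetyl-CoA from citrate, fell by 0.91. FASN (-0.64), ACACA (-0.62) and LPIN1 (-0.56) fell too, and the desaturase FADS2 rose by 0.41. Of 11 genes of other isoprenoid and sterol branches 3 rose and 1 fell. The shared subunit FNTA of the protein prenyltransferases rose by 0.58, the cholesterol hydroxylase CH25H rose by 0.43, and PDSS1, of ubiquinone synthesis, fell by 0.40.

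Of 13 genes of sterol sensing and of the turnover of its proteins, 1 rose and 5 fell in ETV1 cells. ERLIN2, a scaffold for the breakdown of endoplasmic reticulum proteins, rose by 0.68, while its paralog ERLIN1 fell by 0.47 and the ubiquitin-conjugating enzyme UBE2G2 fell by 0.48. Of 19 further genes of uptake, efflux and storage 6 rose and 2 fell. PLTP, the phospholipid transfer protein, averaged 134 ± 47.7 on ETV1 arrays (SD, n = 4) and 15.2 ± 7.26 on control arrays (n = 3), a log2 fold change of 2.24 (SE 0.24). Its averages on control arrays and on ERG-labelled arrays (26.6) lay below the array medians there (71.4 to 73.4 and 48.5 to 52.6). PLTP, 1 of the 6, thus passed the filter only through the ETV1 arrays, where it was high. NCEH1, a hydrolase of cholesterol esters, rose by 1.26, and the caveolar protein CAV1 rose by 0.94.

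On the ERG-labelled arrays the same genes mostly read higher than on control arrays, but this was so of the tested genes as a whole. Over all probe sets, tested or not, the array median was lower, at 48.5 to 52.6 on ERG-labelled arrays and 71.4 to 73.4 on control arrays. The array mean was higher, at 489 to 513 against 338 to 400. Of the 26 genes 13 rose, TM7SF2 among them, and 3 fell, against 47.7% of all tested genes that were higher and 32.2% that were lower, or 79.9% in either direction. Without overlap of arrays 10 of the 26 were higher and 3 lower, against 46.9% and 31.4% of all tested genes. The median log2 fold change of the 15 synthesis enzymes was 0.42, against 0.29 for all tested genes. Of all called genes 59.7% were higher as deposited, 52.8% after quantile normalization and 71.1% after median centring. The median of all tested genes was 0.29, 0.06 and 0.70 in turn. After quantile normalization 9 of the 26 genes were higher and 5 lower, and after median centring 19 and 2.

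Probe sets of the same gene disagreed on the ERG-labelled arrays. Over the whole array, 49.7% of the 4989 genes with several passing probe sets had them all going the same way relative to control, against 96% of 1147 genes for ETV1. Among the 26 genes, 12 had at least 2 passing probe sets in the ERG comparison. In 7 of these, ABCA1, ABCG1, DHCR7, EBP, MVK, SC5D and SQLE, they went opposite ways. In the ETV1 comparison there were 6 such genes and no disagreement. Counted by probe set, 15 of 33 for synthesis were higher and 9 lower on the ERG-labelled arrays, against 43.3% and 35.1% of all probe sets. The 15 include the dimmer MVK probe sets and that of TM7SF2, which passed the filter only through the ERG-labelled arrays. The 9 include dim LSS and SC5D probe sets that lay below the array median on every ERG-labelled array. The same 33 gave none higher and 11 lower on the ETV1 arrays, against 10.4% and 13.1%.

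**Figure D5:**
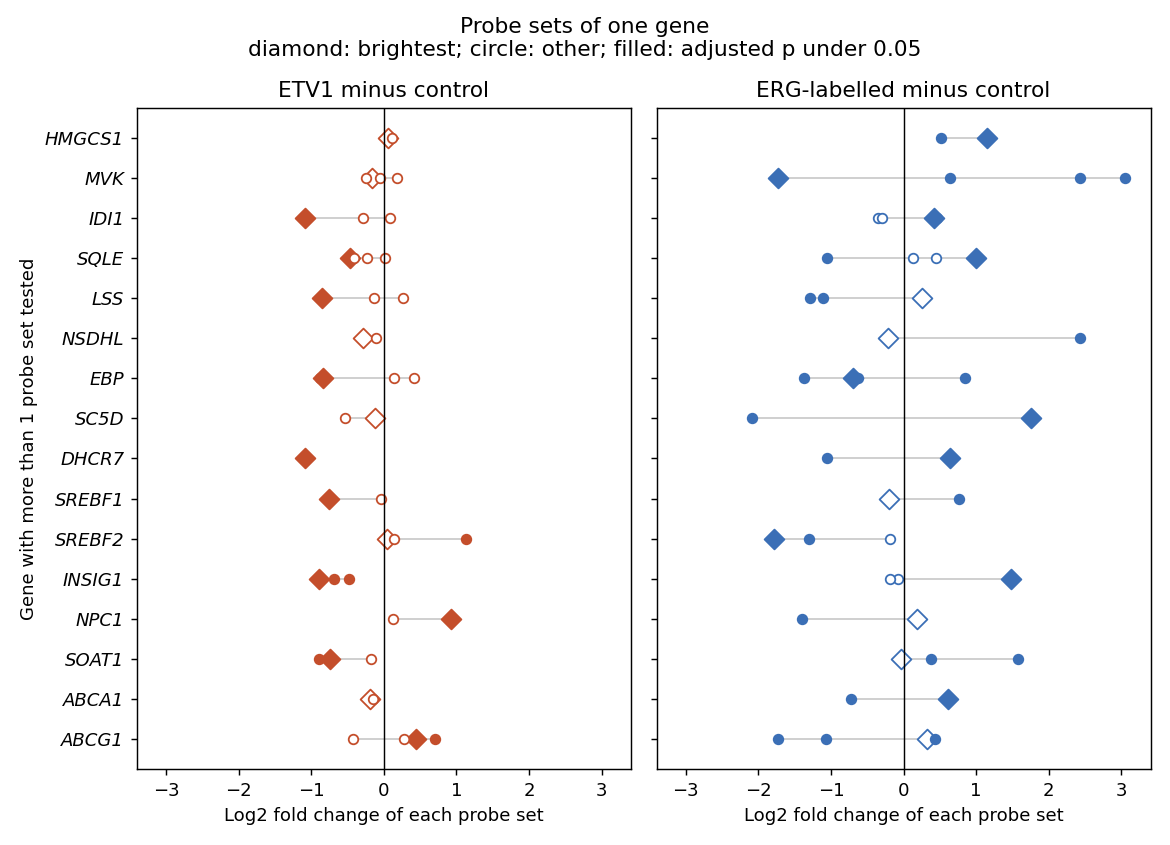
Log2 fold change of every tested probe set of the 16 genes with more than 1, ETV1 minus control on the left and ERG-labelled minus control on the right (diamond: brightest, circle: other, filled: adjusted p under 0.05). MVK spans -1.73 to 3.04 on the right and -0.24 to 0.18 on the left, and the filled probe sets of each gene on the left lie on 1 side of 0.

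MVK shows how far this went. Its brightest probe set read 860.5, 789 and 668 on the ERG-labelled arrays and 2744, 2743 and 2282 on the control arrays. Another MVK probe set read 198, 196 and 132 on the ERG-labelled arrays and 3.65, 10.5 and 7 on the control arrays, so that the log2 fold changes were -1.73 and 3.04. That other probe set lay below the array median on every ETV1 and control array. It passed the filter only through the ERG-labelled arrays, where it was high. DHCR7, whose probe sets both fell on the ETV1 arrays, read 885, 978 and 875 on the ERG-labelled arrays and 675, 568 and 501 on control arrays in its brightest probe set. Its other probe set read 269.9, 384 and 327 on the ERG-labelled arrays and 804, 711 and 566 on control arrays. A direction for these genes on the ERG-labelled arrays therefore depended on the probe set read.

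SC5D had the largest rise in a brightest probe set (1.76), but another of its probe sets fell by 2.09. For genes with a single probe set there is no such check, and their values stand as read. MSMO1, with a single probe set, read 3883, 4606 and 5030.2 on the ERG-labelled arrays and 1743, 1373 and 1125 on the control arrays (log2 fold change 1.68, SE 0.16, limma adjusted p = 6.4e-08). FDPS, also with a single probe set, read 3348, 3779 and 3621 on the ERG-labelled arrays and 1753, 1532 and 1167 on the control arrays (log2 fold change 1.28, SE 0.16). HMGCS1 read 893, 1169 and 1669 on the ERG-labelled arrays and 650.5, 553 and 428 on the control arrays, a log2 fold change of 1.14 (SE 0.20), with its other probe set at 0.52. INSIG1 rose by 1.47 in its brightest probe set, while the others differed by -0.19 and -0.08 and did not pass. INSIG2 rose by 0.76. SREBF2 fell in 2 of its 3 probe sets (-1.79 and -1.30). TM7SF2 rose by 0.79, but lay above the array median on the ERG-labelled arrays alone, so that it could be tested only where it was high.

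In uptake, efflux and storage NPC2, STARD4 and ABCA1 rose on the ERG-labelled arrays, by 0.56, 0.39 and 0.61. The call of STARD4 ended under 13 of 24 alternatives, among them leaving out control replicate B or C, ERG-labelled replicate C or ETV1 replicate A, B or C. After quantile normalization none of the 6 genes passed, NPC2 at -0.05, STARD4 at -0.10 and ABCA1 at 0.23, and after median centring all 6 did. Without control replicate C or without ERG-labelled replicate C 1 of the 6 passed. ABCA1 read 475, 576 and 991 on the ERG-labelled arrays and 490.4, 418 and 359.7 on the control arrays, and a second ABCA1 probe set fell by 0.72. NPC1 differed by 0.18 in its brightest probe set and by -1.40 in another that passed. That dim probe set read 10.9, 17.98 and 34.8 on the ERG-labelled arrays, below the array median, and was tested only through the other arrays. Of the other genes of the pathway, 28 of 54 rose and 10 fell, shares close to or below the 47.7% higher and 32.2% lower of all tested genes. SREBP target ELOVL6 rose by 1.38, while FASN (-1.24) and TMEM97 (-1.49) fell. The NF-Y subunit NFYC rose by 1.63 and the SREBP protease genes MBTPS2 and MBTPS1 changed by 1.21 and -1.19. The lipoprotein receptor LRP1 (-2.02) and the sterol hydroxylase CYP27A1 fell (-1.89), and the ubiquinone enzyme COQ2 rose by 1.67. LRP1 averaged 29.4 and CYP27A1 13.2 on the ERG-labelled arrays, below the array medians there (48.5 to 52.6). Both passed the filter only through the other arrays, where they were high.

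Set directly against ETV1 arrays, the ERG-labelled arrays were higher for 11 of 15 synthesis enzymes and lower for 2, against 50.4% and 33.2% of all tested genes, 83.6% being called in either direction. TM7SF2, tested only through the ERG-labelled arrays where it is high, is among the 11. Without overlap of arrays 15 of the 26 genes were higher and 4 lower, against 49.7% and 32.2% of all tested genes. By probe set, 19 of 33 for synthesis were higher and 9 lower, against 45.6% and 36.5% of all probe sets. The 19 include the dimmer MVK probe sets, tested only through the ERG-labelled arrays. This comparison shares its arrays with the comparisons above. FDPS averaged 3583 ± 218 on the ERG-labelled arrays (SD, n = 3) and 724 ± 76.9 on the ETV1 arrays (n = 4), a log2 fold change of 2.29 (SE 0.15). INSIG1 averaged 1128 ± 172 on the ERG-labelled arrays and 206 ± 18.8 on the ETV1 arrays (log2 fold change 2.36), and here its other probe sets were higher too (0.40 and 0.49). The median difference of the 15 enzymes was 1.08, against 0.35 for all tested genes, and 0.60 against 0.09 after quantile normalization and 1.51 against 0.78 after median centring. Of 14 genes that had more than 1 passing probe set here, 7 had them all going the same way, against 51.5% of 5285 such genes over the whole array. The share of higher calls over all genes was 60.3% as deposited, 53.8% after quantile normalization and 70.9% after median centring. Among the other genes, SCD was higher by 1.81 and NFYC by 1.93, and PLTP and the lipoprotein receptor VLDLR were lower (-1.83 and -1.60). PLTP was tested only through the ETV1 arrays, where it is high.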

How the data were processed

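Total RNA was extracted with Trizol and biotin-labelled cRNA prepared by the standard Affymetrix protocol, per the labels' protocols. For each of 10 arrays the authors deposited an intensity per probe set, not log-transformed. Their probe summary and scaling: not given in the sources used here. Precision is limited by how few arrays there are.

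Of 54675 probe sets, 41091 name 1 gene. A gene (19775 in all) was represented by the probe set with the highest mean log2(intensity + 16). The 14045 genes above the array median on at least 3 arrays were tested, all 26 members among them, with limma in one model of 3 groups (7 residual degrees of freedom, two-sided, Benjamini-Hochberg over all genes tested, threshold 0.05). The same model was fitted over all single-gene probe sets passing the filter (56 of 60 member probe sets). Fits were tested on simulated data. Of the probe sets naming 1 gene, 54 were not matched to the reference gene table. No 2 arrays held identical values.

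Members and gene lists were chosen with earlier results of these data known. All members were named, with the array controls, and of each further list up to 3 passing genes per comparison, the largest in size. FASN, ACACA, LPIN1 and FADS2 were named beyond that after their values were seen. Alternatives were quantile normalization, median centring, no or a 75th percentile filter, other probe set choices, limma with trend and robust, only 2 groups, the replicate letter as a block, leaving out single arrays, a threshold of 0.01, and 1 or 64 as the pseudocount. Replicate letters are shared between groups but correlations of deviations were -0.09 to 0.09, so samples were not taken as paired. R 4.3.3, limma 3.58.1 and Python 3.11.15 were used, and matplotlib 3.10.9 drew the figures.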

Additional observations from a re-analysis of the deposited data

Results flagged for a closer look

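TM7SF2, the sterol reductase, read 50.8 on ETV1 replicate B and 60.3 to 61.3 on the other ETV1 arrays. All 4 values lie below the median of their array (70.9 to 75.5), so this is a dim signal. The gap from replicate B to the nearest of the others was 0.903 of the whole range of that group, which is far for 4 arrays. Chance sets about 1 in 20 such groups apart, and 26 genes were looked at in the ETV1 group, the only group large enough.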

How the results depend on the processing

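The ETV1 call for the synthesis enzymes (8 of 15) was 5 when probe sets were averaged per gene and 4 of the 10 enzymes left when only probe sets with IDs not ending in _s_at, _x_at or _a_at were used, where fewer genes could be tested, and 6 to 8 when arrays were left out in turn. It was 6 with no filter, with a pseudocount of 1 and at a threshold of 0.01. After quantile normalization it was 10, of which 9 were lower and MSMO1 was higher (0.39). ACAT2, FDPS and DHCR7 kept their call under every alternative that measured them, as did INSIG1, SREBF1, NPC2 and SOAT1. LSS (-0.24) and EBP (-0.29) lost it with the mean of probe sets, IDI1 (-0.29) without _x_at probe sets. With the mean of probe sets NPC1 (0.34) lost its call too, and SREBF2 was called higher (0.44, limma adjusted p = 6.2e-03). The regulators (4) were 2 with no filter and 2 at a threshold of 0.01, and 2 to 4 when arrays were left out. Transport genes (4) were 2 with the mean of probe sets, and 3 to 4 when arrays were left out. All genes called (3551) were 1992 at 0.01, and 2255 to 4140 when arrays were left out, fewest without control replicate B. ABCG1 turned to -0.42 without _s_at probe sets. With the replicate block, 3143 genes were called and 7 synthesis enzymes. Letter D occurs in the ETV1 group alone, so the block takes ETV1 replicate D out of every comparison with ETV1. The block ended the calls of SQLE, SCAP and ABCG1, and changed no other call of the 26 genes in this comparison.

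For ERG-labelled minus control, transport genes (3) were 0 after quantile normalization, 6 after median centring, 5 with the mean of probe sets and 1 at 0.01, and 1 to 4 when arrays were left out. All genes called (11223) were 7159 with the 75th percentile filter, and 10170 to 11181 when arrays were left out. With the probe sets of the main fit, 10620 were called after quantile normalization and 11979 after median centring. The replicate block ended the call of STARD4 (0.39), leaving 2 transport genes. Synthesis genes (10) were 8 to 10 and regulators (3) 3 to 4 when arrays were left out. With quantile normalization ACAT2 turned to -0.27, IDI1 to -0.16, NPC2 to -0.050 and STARD4 to -0.10. With the mean of probe sets MVK turned to 1.10, LSS to -0.71, NSDHL to 1.11, SC5D to -0.17, DHCR7 to -0.20, NPC1 to -0.60, ABCG1 to -0.51 and SOAT1 to 0.64. NSDHL turned to 2.43 with the probe set of the highest group mean. Without _s_at, _x_at and _a_at probe sets NSDHL turned to 2.43, IDI1 to -0.35, EBP to 0.84, SC5D to -2.09 and ABCG1 to -1.73. With median centring SOAT1 turned to 0.37.

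For ERG-labelled minus ETV1, synthesis genes (13) were 8 when every probe set was tested, where genes with opposed passing probe sets are not counted, and 11 to 13 when arrays were left out. Regulators (4) were 3 to 4 and transport genes (5) 4 to 5 when arrays were left out. The replicate block ended the calls of SCAP (-0.35) and STARD4 (0.39). All genes called (11746) were 7568 with the 75th percentile filter, and 10688 to 11826 when arrays were left out. MVK turned to 1.17 and LSS to -0.47 with the mean of probe sets, IDI1 to -0.057 and SC5D to -1.55 without _s_at, _x_at and _a_at probe sets, EBP to -0.52, SREBF1 to -0.025 and STARD4 to -0.14 with quantile normalization, and SCAP to 0.059 and ABCG1 to 0.31 with median centring. The cause of these turns was not tested beyond the change of probe set or scale itself.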
